A study of Mus musculus with 6 samples.

Results

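The Plcg2 locus was examined as the set of ATAC-seq peaks whose nearest gene start in the deposited annotation was that of Plcg2 and whose centre lay within 100000 bp of it. This gave 20 peaks of 175929, and no Plcg2 peak lay past the limit, the farthest being 81256 bp downstream of the start. The locus was taken up because its peaks stood out in the comparison of tamoxifen with oil libraries, so the values of that comparison chose the members and are given here as a description, with no test. The leukaemia cells carried the AE9a form of AML1/ETO, a fusion protein that drives acute myeloid leukaemia, and were Usp18+/f with a tamoxifen-inducible Cre in both groups. Recipient mice that had become ill were injected with oil, which left the cells Usp18+/f, or with tamoxifen, which activates Cre and gives Usp18+/Δ cells with 1 allele of Usp18. Lineage-negative, c-Kit+ GFP+ cells were taken from spleen 3 days after the first injection, with replicates 1, 2 and 4 in the oil group and replicates 1, 3 and 4 in the tamoxifen group. AE9a was introduced by retrovirus into fetal liver cells, the Cre is expressed in all tissues, and the oil group received neither tamoxifen nor active Cre, so that loss of the Usp18 allele, active Cre and the drug itself cannot be told apart. The mice were young adults of both sexes, per the study's methods. These methods name, for the sorted cells also used for ATAC-seq, a number of mice per group equal to the libraries here, but describe fewer replicates of the assay elsewhere. Nothing in the labels ties a library to a single mouse, so n counts libraries, and the spread between libraries may be technical in part.

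PLC-gamma-2, the product of Plcg2, is a phospholipase of blood cells. Downstream of receptors that signal through ITAM motifs, the tyrosine kinases Syk and Btk phosphorylate it on an adaptor such as Blnk, and it then cleaves the membrane lipid PIP2 into IP3, which releases calcium, and diacylglycerol, which activates protein kinase C and RasGRP proteins. It is best known from B cells, where it transmits the antigen receptor signal, and from myeloid cells, mast cells, platelets and NK cells. In ATAC-seq a transposase cuts open DNA, so the tags in a peak measure how accessible that stretch was, not how much of the gene was expressed.

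The gene lies on the plus strand of chromosome 8 of mm10, from 117498275 to 117635142 in RefSeq, and has 33 exons in GENCODE. Of the 20 peaks, 17 were annotated to introns and 3 were intergenic, between -18951 and -16233 bp from the start. Intron 2 is 51.6 kb long, or 38.9% of all intron sequence of the gene, and held 10 of the peaks. One (1) peak, at the start, overlapped an exon, and 6 lay in annotated repeats. The peaks were short, with a median width of 255 bp against 249 bp over all peaks. In the authors' peak lists, 1 member came from the oil list alone, 9 from the tamoxifen list alone and 10 from both, against 17.4%, 11.2% and 71.4% of all peaks.

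The sequences below are those of the upstream promoter and of 6 peaks on which the description turns. The promoter is the run of 250 bases that ends at the base before the RefSeq start (chr8:117498025-117498274, plus strand, GRCm38.p6). The peaks are shown by the central 200 bases of the plus strand of the same build, with capitals for the letters of a searched motif on either strand. They are the tallest peak, 50356 bp from the start (chr8:117548531-117548730), a further tall peak of intron 2 at 45693 bp (chr8:117543868-117544067), the peaks with the largest fold, at 64500 bp (chr8:117562675-117562874), 78973 bp (chr8:117577148-117577347) and 38891 bp (chr8:117537066-117537265), and the peak at 29128 bp (chr8:117527303-117527502), the one that was called with no match to any motif searched.
Plcg2 promoter: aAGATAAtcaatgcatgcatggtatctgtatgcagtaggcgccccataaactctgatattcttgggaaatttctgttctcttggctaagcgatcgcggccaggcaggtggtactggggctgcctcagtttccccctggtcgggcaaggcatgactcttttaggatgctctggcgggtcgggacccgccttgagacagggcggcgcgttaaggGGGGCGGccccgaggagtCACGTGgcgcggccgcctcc
Peak +50.4 kb: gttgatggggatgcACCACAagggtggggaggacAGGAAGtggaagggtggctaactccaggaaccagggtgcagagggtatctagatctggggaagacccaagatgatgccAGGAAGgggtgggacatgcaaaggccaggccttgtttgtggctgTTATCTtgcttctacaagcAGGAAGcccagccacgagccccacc
Peak +45.7 kb: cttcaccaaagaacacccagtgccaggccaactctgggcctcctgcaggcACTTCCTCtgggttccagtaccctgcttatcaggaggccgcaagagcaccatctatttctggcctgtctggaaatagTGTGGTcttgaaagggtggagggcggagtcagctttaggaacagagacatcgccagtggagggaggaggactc
Peak +64.5 kb: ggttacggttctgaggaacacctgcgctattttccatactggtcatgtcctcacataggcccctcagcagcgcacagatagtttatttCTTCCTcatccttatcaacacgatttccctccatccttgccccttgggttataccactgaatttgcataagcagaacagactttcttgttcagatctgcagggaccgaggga
Peak +79.0 kb: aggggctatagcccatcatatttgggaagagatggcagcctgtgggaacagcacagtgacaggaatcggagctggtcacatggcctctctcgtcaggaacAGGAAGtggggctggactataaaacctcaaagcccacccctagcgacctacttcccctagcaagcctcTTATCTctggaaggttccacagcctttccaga
Peak +38.9 kb: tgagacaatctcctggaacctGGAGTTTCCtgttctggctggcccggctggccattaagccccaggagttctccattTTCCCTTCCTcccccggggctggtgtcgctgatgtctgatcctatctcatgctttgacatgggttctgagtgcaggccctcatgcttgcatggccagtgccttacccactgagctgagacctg
Peak +29.1 kb: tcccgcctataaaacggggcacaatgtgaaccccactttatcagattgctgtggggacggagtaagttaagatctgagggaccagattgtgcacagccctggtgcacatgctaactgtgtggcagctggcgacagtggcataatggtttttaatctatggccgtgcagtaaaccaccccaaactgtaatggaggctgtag

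Tags were scaled to a common depth with DESeq2 size factors and are called normalised tags below, and each fold is tamoxifen over oil. A peak was termed called where the fold was over 2 and the DESeq2 adjusted p, over all 175929 peaks, was under 0.05, which held for 0.654% of all peaks in either direction and for 0.588% with tamoxifen higher. Total tags ran from 57.4 to 74.7 M per library (M, 1000000) and 28.2 to 30.5% of them fell in peaks. The median peak held 45 to 57 tags in a library, so a member of 10 to 30 tags is measured with a large counting error, whereas the start peak and the tallest intron peak are not limited by it. Tamoxifen replicate 4 stood nearer to the oil libraries than tamoxifen replicates 1 and 3 did. Over the 1034 peaks called with tamoxifen higher, it lay a median of 0.70 of the way from the oil mean to the mean of tamoxifen replicates 1 and 3 (quartiles 0.55 and 0.86, on log2 of normalised tags plus 1).

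The Plcg2 locus as a whole was more accessible after tamoxifen. Summed over the 20 peaks, the oil libraries held 1180, 1238 and 1248 normalised tags (replicates 1, 2 and 4), and the tamoxifen libraries 2380, 2628 and 2121 (replicates 1, 3 and 4). All 3 tamoxifen libraries lay above all 3 oil libraries, and the mean of 2377 ± 254 (SD, n = 3) against 1222 ± 36.5 (SD, n = 3) was a 1.94-fold difference, or 0.96 on the log2 scale. Of the 20 peaks, 19 had a fitted log2 fold change above 0, with a median of 0.97 and a range of -0.53 to 1.79, where the median was -0.00 over all peaks and -0.01 over the 12776 peaks of chromosome 8. The number of called members was 9, all with tamoxifen higher, and a further one, the start peak, had an adjusted p under 0.05 with a smaller fold, as did 1.22% of all peaks with tamoxifen higher. In 16 of the 20 (80.0%) the groups did not overlap with tamoxifen higher, as in 11.9% of all peaks, and in none of the 20 (0) with oil higher. Since these values chose the locus, nothing is read from the shares. The cells were measured in bulk, so that a wider opening in each cell and more cells with an open Plcg2 locus cannot be told apart.

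**Figure D1:**
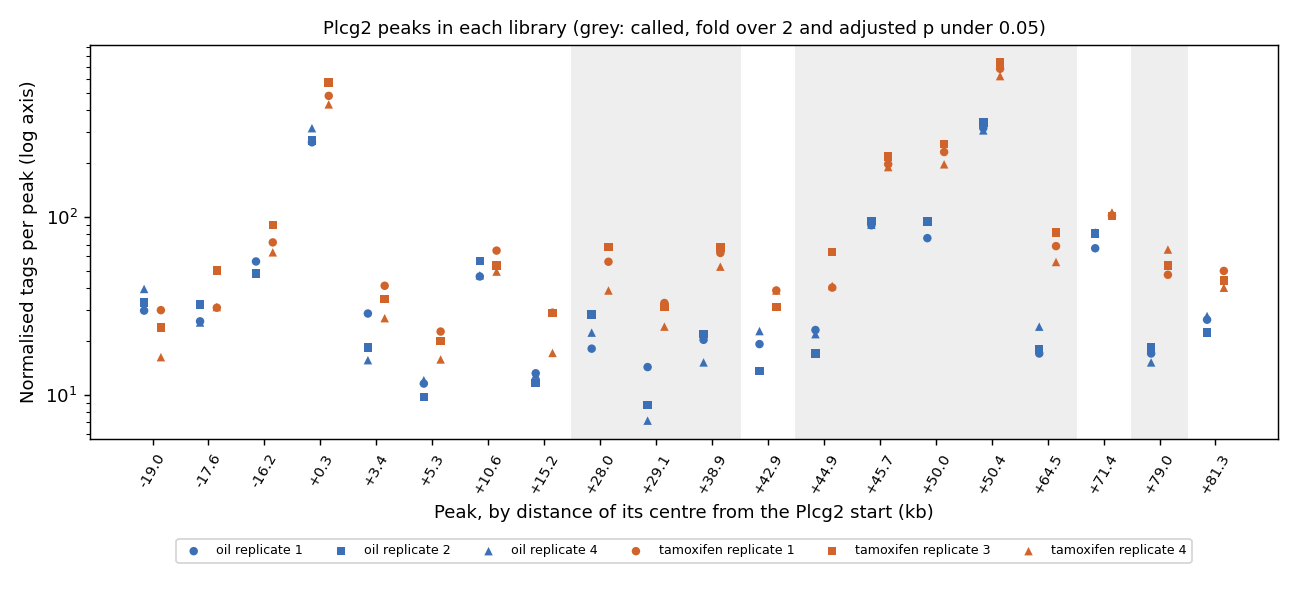
Normalised tags (log axis) of each of the 20 Plcg2 peaks in each of the 6 libraries, with the peaks in order of their distance from the Plcg2 start in kb. Oil libraries are blue and tamoxifen libraries orange, grey marks the 9 called peaks, and the groups are apart in 16 of the 20.

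The start peak, which covers the first exon and the CpG-rich beginning of intron 1 (chr8:117498155-117498907), was the second tallest member. It held 263, 269 and 316 normalised tags in the oil libraries and 480, 570 and 430 in the tamoxifen libraries. The groups did not overlap, and the fitted log2 fold change was 0.80 ± 0.12 (SE), or 1.74-fold, below the fold limit of the call. The start peak made up 23.1% of the tags of the locus after oil and 20.8% after tamoxifen.

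The 16 intron peaks away from the start carried most of the tags and most of the difference. Together they held 805, 856 and 818 normalised tags in the oil libraries and 1767, 1894 and 1581 in the tamoxifen libraries, a log2 difference of 1.08. The tallest member, 50356 bp from the start in intron 2 (chr8:117548507-117548755), held 317, 340 and 307 normalised tags after oil and 681, 739 and 620 after tamoxifen. Its groups lay far apart for their spread, at 321 ± 17.2 and 680 ± 59.5 (SD, n = 3 each), and its log2 fold change of 1.08 ± 0.10 (SE) had the smallest standard error of the 20. In oil it was taller than 91.8% of all peaks, so it was an open site in both groups and not one that appeared after tamoxifen.

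A second tall peak lay only 0.405 kb before it, at 49951 bp (chr8:117548123-117548329). It held 76.1, 94.6 and 94.5 normalised tags after oil and 232, 257 and 198 after tamoxifen, a log2 fold change of 1.36 ± 0.17 (SE). The peak at 45693 bp (chr8:117543826-117544111) held 89.9, 95.1 and 90.5 after oil and 198, 219 and 191 after tamoxifen, a log2 fold change of 1.13 ± 0.16 (SE). In both the lowest tamoxifen library was above the highest oil library by more than the whole range of the oil libraries. With the peak at 44862 bp (chr8:117543013-117543261, log2 fold change 1.22 ± 0.34 SE), these made a group of 4 called peaks in the distal end of intron 2.

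The largest folds were at peaks that were low in oil. The peak at 64500 bp in intron 5 (chr8:117562647-117562903), inside an L1MB3 LINE element, held 17.1, 18.04 and 24.2 normalised tags after oil and 68.6, 81.9 and 55.9 after tamoxifen, a log2 fold change of 1.79 ± 0.32 (SE). The peak at 78973 bp in intron 9 (chr8:117577121-117577375), inside an ORR1E LTR element, held 17.1, 18.5 and 15.2 after oil and 47.4, 53.5 and 65.6 after tamoxifen, a log2 fold change of 1.70 ± 0.34 (SE). These were the only called members outside intron 2, and the second was the one where tamoxifen replicate 4 was the highest of the 3. The peak at 38891 bp in intron 2 (chr8:117537056-117537277), inside a B4A SINE element, held 20.4, 21.9 and 15.2 after oil and 62.8, 67.4 and 52.6 after tamoxifen, a log2 fold change of 1.69 ± 0.32 (SE). All 3 lay in repeats, and in oil they were taller than only 2.52 to 5.86% of all peaks. They came from the tamoxifen peak list alone, as did the called peaks at 29128 and 44862 bp. Such peaks entered the table only through the tamoxifen group, so their low oil values and folds are subject to that selection and are given as a description. The tamoxifen list alone also held members that were not called, at 3383, 5254, 15189 and 42900 bp. How much of the folds the lists account for was not tested. In sum, the 9 members of the tamoxifen list alone had a log2 difference of 1.33, and the 10 of both lists 0.93. A repeat can share reads with its copies elsewhere, and whether that touched these tag counts was not tested.

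Another pair of called peaks in intron 2 lay 1.11 kb apart. The peak at 29128 bp (chr8:117527292-117527515) held 14.3, 8.78 and 7.17 normalised tags after oil and 32.9, 31.2 and 24.2 after tamoxifen, a log2 fold change of 1.56 ± 0.46 (SE). The peak at 28021 bp (chr8:117526152-117526440) held 18.2, 28.3 and 22.4 after oil and 56.1, 68.0 and 38.6 after tamoxifen, a log2 fold change of 1.24 ± 0.33 (SE). In both peaks the groups were apart. Leaving out any 1 oil library, tamoxifen replicate 1 or tamoxifen replicate 3 ended the call of these peaks and of that at 44862 bp, with log2 fold changes of 0.98 to 1.89 in those fits. Leaving out tamoxifen replicate 4 ended that at 29128 bp (log2 fold change 1.69), and the other 6 stayed called in each of these fits. Over the 9 called members, tamoxifen replicate 4 lay a median of 0.79 of the way from the oil mean to tamoxifen replicates 1 and 3 (range 0.53 to 1.25).

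The difference was not even along the locus. With a boundary of 25 kb past the start, chosen after the values were seen, 9 of the 12 peaks beyond it were called, with a median log2 fold change of 1.23, against 0 of the 8 peaks before it, with a median of 0.63. The exceptions beyond 25 kb were the peaks at 42900 bp (log2 fold change 0.94 ± 0.37 SE), 71358 bp (0.43 ± 0.20 SE) and 81256 bp (0.81 ± 0.32 SE). At 71358 bp in intron 7 the oil libraries held 66.7, 80.9 and 82.0 normalised tags and the tamoxifen libraries 102, 101 and 106, so the groups were apart by a small margin. The peak at 81256 bp in intron 10, within an ORR1A2 LTR element, held 26.5, 22.4 and 27.8 after oil and 49.8, 44.0 and 40.0 after tamoxifen, and was the member nearest to the distance limit. Before 25 kb, the intron peak at 10602 bp differed least, with 46.3, 56.6 and 47.0 after oil, 64.8, 53.5 and 49.4 after tamoxifen, overlapping groups and a log2 fold change of 0.16 ± 0.26 (SE). The other 3 intron peaks there, at 3383, 5254 and 15189 bp, were low, at 9.75 to 28.7 normalised tags after oil, and had log2 fold changes of 0.70, 0.82 and 0.99.

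The 3 upstream peaks together held 112, 114 and 113 normalised tags in the oil libraries and 133, 164 and 111 in the tamoxifen libraries, a log2 difference of 0.27 with overlapping groups. The farthest of them, at -18951 bp (chr8:117479128-117479520), was the one member that was lower after tamoxifen and the one that came from the oil peak list alone. It held 29.8, 33.2 and 39.4 after oil and 30.0, 23.95 and 16.3 after tamoxifen, a log2 fold change of -0.53 ± 0.36 (SE) with overlapping groups. The next, at -17584 bp, held 25.9, 32.2 and 25.5 after oil and 30.9, 50.1 and 31.2 after tamoxifen, with overlapping groups. The nearest, at -16233 bp, held 56.3, 48.3 and 48.4 after oil and 72.0, 90.2 and 63.3 after tamoxifen, without overlap (log2 fold change 0.55 ± 0.25 SE).

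To see how far the difference reached, the other 239 peaks within 500000 bp of the Plcg2 start were described in the same fit. Their median log2 fold change was 0.01 and 2 of them were called, both with tamoxifen higher, which is near the share of all peaks called. There were no calls (0) without tamoxifen replicate 1 or 3, 1 without any one of the oil libraries and 4 without tamoxifen replicate 4. On the upstream side the peaks assigned to Mir7078, of which 24 lay between -39.9 and -20.7 kb, had a median of -0.05, and the 109 of Cmip, which encodes the c-Maf-inducing protein, a median of 0.07 with none called. On the downstream side the difference went on past the last member. The distal part of the gene body held 3 further peaks that lie nearer to the start of Sdr42e1, a gene of the short-chain dehydrogenase family, and were assigned to it. The first of these (chr8:117596852-117597108, intron 20 of Plcg2) held 10.5, 4.88 and 13.4 normalised tags after oil and 36.2, 60.7 and 48.0 after tamoxifen, a log2 fold change of 2.30 ± 0.42 (SE), above that of any Plcg2 peak. The other 2 in the gene body had log2 fold changes of 0.75 and 0.55.

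Beyond the end of Plcg2, 4 peaks up to the start of Hsd17b2 had a median log2 fold change of 0.79. In all 4 the groups were apart with tamoxifen higher, as in 11.9% of all peaks. One (1) of them was called, an intergenic peak (chr8:117659061-117659312) with 14.9, 28.8 and 22.4 normalised tags after oil and 63.3, 47.4 and 44.2 after tamoxifen. The start peak of Sdr42e1 (chr8:117673567-117673794) held 48.0, 56.1 and 47.9 after oil and 123, 117 and 67.0 after tamoxifen, a log2 fold change of 1.00 ± 0.25 (SE), with tamoxifen replicate 4 close to the oil libraries. All 6 peaks assigned to Sdr42e1 were apart with tamoxifen higher, with a median of 0.87. They include all but the last of the 4 peaks past the end of Plcg2, so these counts share peaks. Farther on, the 23 peaks of Mphosph6 had a median of -0.18 with none called. In the stretch from -16.2 kb to the peak 199 kb past the Plcg2 start, near the start of Hsd17b2, every peak had a fitted log2 fold change above 0. The rise was not continuous, since the groups overlapped at 3383 and 10602 bp. Neither end peak was called, with log2 fold changes of 0.55 and 0.53. The peaks of this stretch are not independent of each other, and it was outlined after the values were seen.

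**Figure D2:**
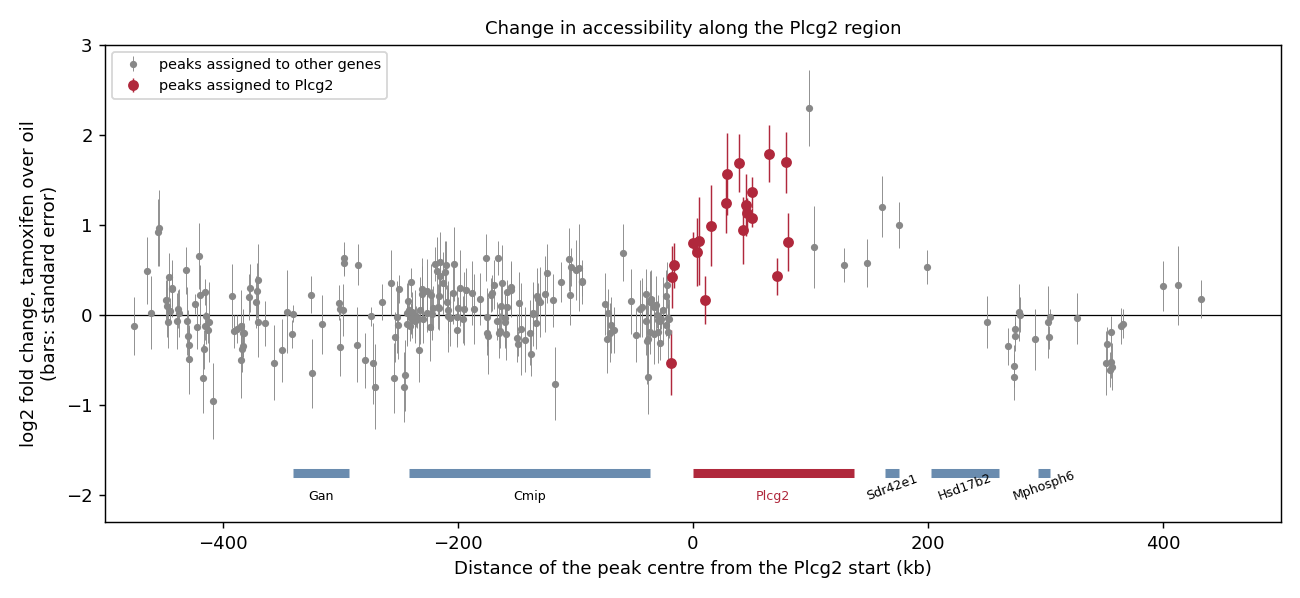
Fitted log2 fold change (tamoxifen over oil, bars are standard errors) of every peak within 500000 bp of the Plcg2 start, against distance from that start in kb, with gene bodies drawn as bars below. The Plcg2 peaks (red) and the 6 Sdr42e1 peaks after them lie mostly above 0.5, whereas the peaks on either side scatter around 0.

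The letters of short factor motifs were searched in the central 200 bases of each peak on both strands, and compared with all 175738 peaks on the 21 main chromosomes. A match is a description of letters, not a bound site. The ETS letters AGGAAG were in 13 of the 20 Plcg2 windows (65.0%) and in 8 of the 9 called ones, against 29.9% of all windows and 45.8% of the windows of the 1034 peaks called with tamoxifen higher. In the peaks at 28021 and 78973 bp they began at base 101 of the 200, the centre of the window, and the tallest peak held them at 3 positions, 35, 113 and 176. The longer PU.1 letters GAGGAAGT, which contain the ETS letters, were in 4 of the 20 windows (20.0%), 3 of them called, against 3.75% of all windows and 8.90% of those called higher. PU.1 is the ETS factor that governs myeloid and B cell genes. The GC content of the 20 windows had a median of 53.8%, from 46.5 to 74.0%, where that of all windows was 50.5%.

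Each of the other motifs searched was in 4 or fewer of the 20 windows. The RUNX letters TGTGGT, those of the factor family to which AML1 belongs, were in 4 windows, 3 of them called, against 18.7% of all windows and 37.0% of those called higher. The GATA letters AGATAA were in 3 windows against 15.1%, the interferon response letters GAAANNGAA in 2 against 5.13%, and the overlapping composite letters GGAANNGAA of ETS and IRF factors in 1 against 6.40%. The NF-kB letters GGANTTTCC were in 1 window, that of the peak at 38891 bp, against 0.803%, the STAT letters TTCNNNGAA in 1 (5.00%) against 4.85%, the heat shock letters TTCNNGAA in 1 against 4.77%, and the Sp/KLF letters GGGGCGG in 1 against 7.55%. No window (0) held the AP-1 letters TGANTCA (6.61% of all windows), the C/EBP letters TTGCNNCAA (1.44%), the glucocorticoid receptor letters ACANNNTGT (6.02%), the oestrogen receptor core TCANNNTGA (5.38%), the EGR letters CGCCCACGC (0.162%) or the E-box CACGTG (4.59%). The Plcg2 promoter above held the GATA letters at base 2, the Sp/KLF letters at base 213 and the E-box at base 231, which 9.99%, 20.97% and 6.02% of 32851 RefSeq promoters of this length also held.

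The genes around PLC-gamma-2 were then read through peaks within 100000 bp of their starts. Of 80 genes listed by role, 79 had a peak, and Nfatc2 had none (0). Of their 1035 peaks, 16 were called, all with tamoxifen higher (1.55%, against 0.588% of all peaks), in 5 genes. Their median log2 fold change was 0.02. The calls were thus confined to 5 of 79 genes in this fit, and the median of the whole list was close to 0. The Plcg2 locus was taken up for its difference, so its own median is not comparable with that of the list. With 1 library left out at a time there were 6 calls (without tamoxifen replicate 3) to 22 (without tamoxifen replicate 4), with 7 without oil replicate 2, 8 without tamoxifen replicate 1, 9 without oil replicate 4, and 10 without oil replicate 1. An adjusted p here is that of DESeq2 over all peaks, and an unadjusted p is named as such. The share of all peaks with an unadjusted p under 0.05 was not computed, so nothing is read from counts at that limit. A count of 0 calls in a role of 109 to 165 peaks is near the share of all peaks called, and nothing is read from it.

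Of the 15 receptors and ITAM partners, none of 109 peaks (0) was called, and the median was -0.01. DESeq2 gave 14 of them an unadjusted p under 0.05, 10 with tamoxifen higher, a count with no share of all peaks to set it against. The peak with the smallest p was at Fcgr4, an activating IgG receptor of myeloid cells, with 220, 171 and 198 normalised tags after oil and 114, 103 and 169 after tamoxifen (log2 fold change -0.60 ± 0.18 SE, adjusted p = 0.0703).

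Among the 8 tyrosine kinases, 4 of 126 peaks were called (3.17%, against 0.588% of all peaks), in Tec and Syk, with a median over all kinase peaks of 0.13. Tec, a kinase of the same family as Btk, had 3 called peaks, of which the first (chr5:72851757-72852046, intron 1) held 53.5, 46.8 and 57.8 normalised tags after oil and 109, 100 and 117 after tamoxifen (log2 fold change 1.05 ± 0.22 SE, adjusted p = 0.000484). Its groups did not overlap. For Syk, a kinase that acts upstream of PLC-gamma-2, the peak at the first start held 68.4, 77.0 and 76.6 after oil and 95.2, 81.3 and 101 after tamoxifen and was not called (log2 fold change 0.32 ± 0.21 SE, adjusted p = 0.757). The called Syk peak lay at -35 bp from a second start (chr13:52596724-52596970) and held 19.9, 22.9 and 22.4 after oil and 46.9, 67.4 and 38.6 after tamoxifen (log2 fold change 1.20 ± 0.34 SE, adjusted p = 0.0315). The start peaks of Btk, which phosphorylates PLC-gamma-2 directly, and of the Src family kinase Lyn did not pass the test, with log2 fold changes of -0.12 ± 0.20 (SE, adjusted p = 0.969) and 0.02 ± 0.13 (SE, adjusted p = 0.994).

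Of 151 peaks at 12 adaptor genes, 2 were called (1.32%, against 0.588% of all peaks), both at Clnk, an adaptor of the Blnk and SLP-76 family. The first (chr5:38864672-38864992, intron 1) held 41.9, 22.9 and 47.9 normalised tags after oil and 142, 162 and 131 after tamoxifen (log2 fold change 1.93 ± 0.24 SE, adjusted p = 3.74e-12). The lowest tamoxifen library was thus far above the highest oil library. Blnk itself, the adaptor on which PLC-gamma-2 docks in B cells, did not pass at its nearest peak (log2 fold change 0.12 ± 0.31 SE, adjusted p = 0.986). Of 110 peaks at 6 genes for PI3K subunits and lipid kinases, which make or convert the lipids that PLC-gamma-2 meets at the membrane, none (0) was called, with 17 at an unadjusted p under 0.05 in DESeq2. The peak with the smallest p was in Pik3r1, a regulatory subunit of PI3K, with a log2 fold change of 0.73 ± 0.13 (SE, adjusted p = 5.27e-06).

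Downstream, the arms of the pathway differed in their counts, a difference that was not tested. In the diacylglycerol arm 6 of 183 peaks were called (3.28%, against 0.588% of all peaks). All were at Prkcb, the protein kinase C isoform that couples PLC-gamma-2 to NF-kB in B cells. Summed over its 12 peaks, Prkcb held 344, 382 and 305 normalised tags after oil and 724, 724 and 575 after tamoxifen, a log2 difference of 0.97, close to that of the Plcg2 locus. Its most certain peak (chr7:122340727-122341065, intron 2) held 50.7, 64.4 and 38.1 after oil and 150, 158 and 116 after tamoxifen (log2 fold change 1.48 ± 0.23 SE, adjusted p = 1.33e-07). In the calcium arm, which comprises IP3 receptors, STIM and Orai channels, calcineurin and NFAT, none of 165 peaks (0) was called, with 12 at an unadjusted p under 0.05 in DESeq2. The smallest p was at Orai2, a calcium channel subunit (log2 fold change 0.63 ± 0.17 SE, adjusted p = 0.0181).

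Among the inhibitors of the pathway, 4 of 191 peaks were called (2.09%, against 0.588% of all peaks). All 4 were at Lilrb4a, an inhibitory receptor of myeloid and mast cells. Its start peak (chr10:51490753-51490956) held 6.62, 6.83 and 9.41 normalised tags after oil and 40.6, 101 and 28.9 after tamoxifen (log2 fold change 2.90 ± 0.49 SE, adjusted p = 3.08e-06). The groups were apart, but tamoxifen replicate 3 held more than the other two together. The start peak of Inpp5d, which encodes the lipid phosphatase SHIP1, did not pass (log2 fold change 0.05 ± 0.11 SE, adjusted p = 0.979).

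The other phospholipases C were read in the same way. Of 14 family members, 11 had peaks and Plce1, Plch1 and Plcz1 had none (0). None of the 133 family peaks (0) was called by DESeq2, which is near the share of all peaks called, 0.654%, and nothing is read from it. At an unadjusted p under 0.05 in DESeq2 there were 11, 5 with tamoxifen higher and 6 lower, with no share of all peaks computed at that limit. Without tamoxifen replicate 4 there were 2 calls, both lower, and edgeR on all libraries called 1. Plcg1, the closest paralog and the form used by T cells and most other tissues, had sums over its 13 peaks of 1649 ± 66.9 normalised tags in the oil group and 1705 ± 74.6 in the tamoxifen group (SD, n = 3), a log2 difference of 0.05. Its start peak held 596, 565 and 523 after oil and 553, 622 and 533 after tamoxifen, with overlapping groups (adjusted p = 0.994). The smallest p of the family was at Plcb4, a form activated by G proteins, where a low peak held 4.41, 6.83 and 4.48 after oil and 30.0, 30.1 and 7.91 after tamoxifen (log2 fold change 2.09 ± 0.62 SE, adjusted p = 0.0545).

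**Figure D3:**
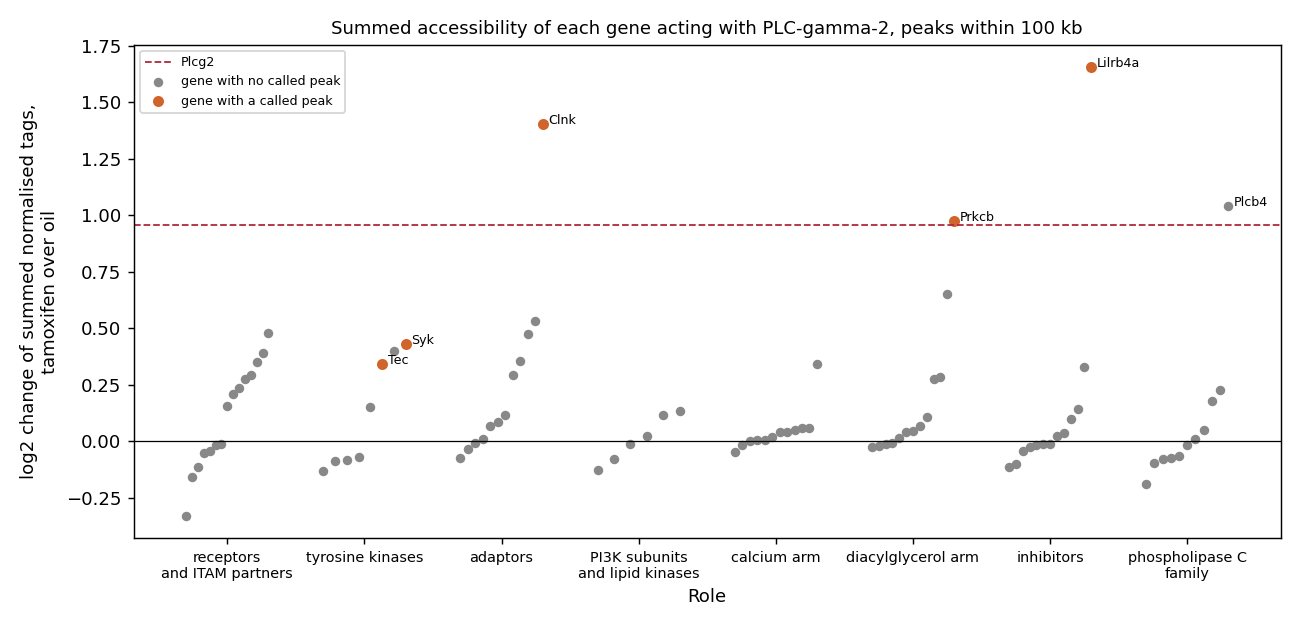
The log2 change (tamoxifen over oil) of the summed normalised tags of each gene with peaks, grouped by role, each point a gene and orange where it has a called peak. The dashed line is the Plcg2 locus at 0.96, and only Prkcb, Clnk, Lilrb4a and Plcb4 lie above it.

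The genes whose summed tags followed those of Plcg2 most closely over the 6 libraries were Il21r (Pearson r = 0.998), Cyp26b1 (0.998), Cmtm8 (0.997), Hpcal1 (0.997) and Cd72 (0.997), among 11420 genes with at least 5 peaks. Their own log2 differences were smaller, at 0.26, 0.34, 0.38, 0.55 and 0.18. By size of the log2 difference Plcg2 ranked 19 of these genes. The libraries fall into 2 groups of 3 and share their depth, so a high r says mainly that a gene differed between the groups with tamoxifen replicate 4 in between, and 8.36% of the genes had an r over 0.9.

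Marker genes of other cells that use PLC-gamma-2 were summed beside the locus. The labels describe c-Kit+ lineage-negative cells, and the start peak of Kit held 757 ± 9.06 normalised tags in the oil group and 787 ± 60.8 in the tamoxifen group (SD, n = 3), while that of the stem cell marker Cd34 held 94.6 ± 21.8 and 270 ± 60.5 (log2 fold change 1.50, adjusted p = 8.32e-12). The start peak of Usp18 held 438 ± 21.8 and 449 ± 17.0, which does not measure the deletion of the floxed part. The B cell list, with peaks at 8 of 9 genes and none at Ms4a1, summed to 3812 to 3961 normalised tags after oil and 3740 to 4032 after tamoxifen, with overlapping groups. The mast cell and basophil list, with peaks at all 9 genes, summed to 5936 to 6639 after oil and 7190 to 9103 after tamoxifen, a log2 difference of 0.34 without overlap. Of its 89 peaks, 5 were called with tamoxifen higher, as were 0.588% of all peaks. The groups were apart with tamoxifen higher in 23 of the 89, as in 11.9% of all peaks, and with oil higher in 2. The share of all peaks with oil higher was not computed, so nothing is read from that count. Its genes differed in direction, with summed log2 differences of -0.33 at Ms4a2 and 0.48 at Fcer1a. Tamoxifen replicate 3, in which the Plcg2 sum was highest, also had the highest sum of the mast cell, T cell, mature myeloid and stem cell lists.

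The T cell list, with peaks at all 8 genes, summed to 1148 to 1301 after oil and 1351 to 1505 after tamoxifen. The NK cell list, with peaks at 3 of 6 genes and none at Ncr1, Klrd1 and Gzma, summed to 3576 to 3680 and 3997 to 4012, and the mature myeloid list, with peaks at 12 of 14 genes and none at Lyz2 and Camp, to 3665 to 3745 and 3955 to 4112. The erythroid list, with peaks at all 8 genes, was lower after tamoxifen, at 7303 to 7605 and 6556 to 6996. The megakaryocyte and platelet list, with peaks at all 7 genes, overlapped, at 4694 to 4963 and 4774 to 5113. The stem, progenitor and blast list, with peaks at all 8 genes, summed to 7316 to 7579 and 7639 to 8179. No promoter-proximal peak was present at 5 of 9 B cell genes, 4 of 8 T cell genes or 5 of 6 NK cell genes. The same held for 10 of 14 mature myeloid, 2 of 9 mast cell and basophil and 1 of 8 erythroid genes. It also held for 3 of 7 megakaryocyte and platelet and 1 of 8 stem, progenitor and blast genes. The sums thus include distal peaks and do not measure marker promoters alone. In each list the log2 difference was smaller than the 0.96 of the Plcg2 locus. That locus was taken up for its difference, so a sum over many genes is not comparable with it. The cells were sorted as GFP+ and lineage-negative, and whether other cells remained was not tested. The part that the differences in the mast cell, T cell, NK cell, myeloid, erythroid and stem, progenitor and blast lists had in the Plcg2 result was not tested.

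**Figure D4:**
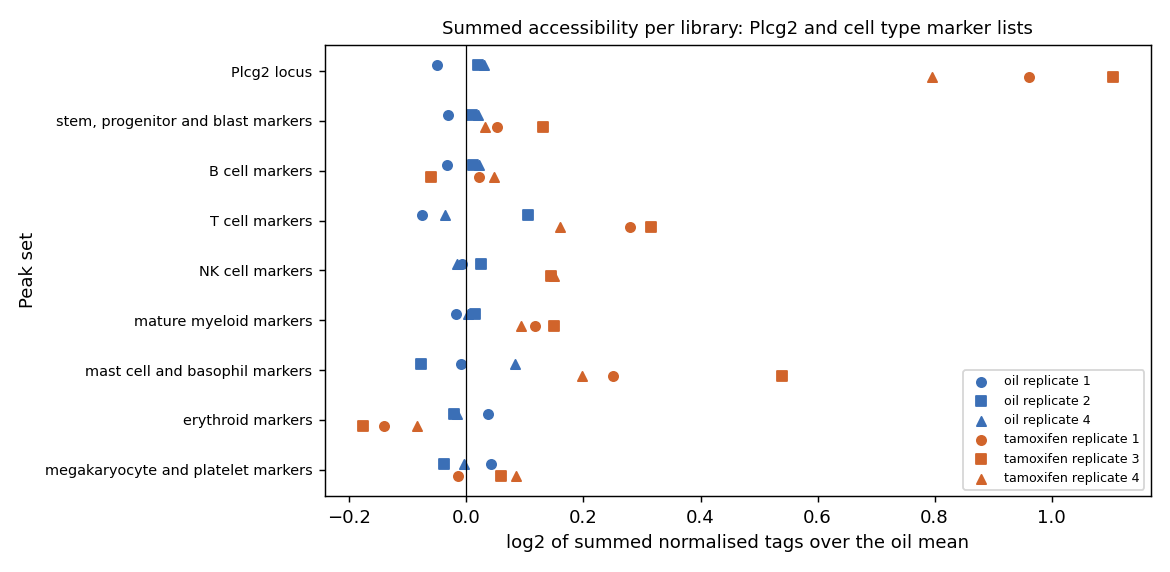
Summed normalised tags of the Plcg2 locus and of 8 marker lists in each library, as log2 over the mean of the oil libraries (blue oil, orange tamoxifen). The Plcg2 sums of the tamoxifen libraries are farthest to the right, the mast cell and basophil list follows with a log2 difference of 0.34, and the erythroid list lies to the left.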

How the data were processed

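ATAC-seq was performed on 6 libraries of sorted AE9a leukaemia cells, 3 after oil and 3 after tamoxifen. Per the labels and the study's methods, the authors aligned reads to mm10 with Bowtie2, called peaks with HOMER, merged the lists of both groups and annotated each peak to its nearest gene start. Tool versions are not given in the sources used here. The deposited table holds unnormalised tags per merged peak, an estimated count in steps of 0.5 since each mate counts 0.5, with at most 3 tags per position, which caps the tallest peaks. The peak score deposited beside them, which the authors took from their peak lists, entered no test. A peak called in neither group is not in the table.

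Tags were rounded to whole numbers, and all 175929 peaks were fitted at once with DESeq2 1.42.0 (R 4.3.3), Wald test, tamoxifen against oil, with Benjamini-Hochberg adjustment. A peak was called at a fold over 2 and an adjusted p under 0.05. Sums are over normalised tags of peaks within 100000 bp of a gene's start. The chi-square between libraries, divided by its degrees of freedom, was 1.03 to 1.22 for oil pairs and 1.48 to 2.68 for tamoxifen pairs. No library was set aside as a repeat. The smallest of these values, that of oil replicates 1 and 2, is near the 1 of counting error alone. SDs and p-values may therefore measure technical spread. Size factors, filter, test (edgeR 4.0.16), thresholds, distances and libraries were varied 1 at a time.

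Members, gene lists, marker lists and tests were chosen with earlier results of these data known. Named members are the start peak, the 3 tallest, the 6 with the largest rise, the 3 lowest folds and the 2 nearest the limit, and the other members are given with the locus. In the pathway list, up to 3 called peaks per role and direction were named, or else the peak with the smallest p, likewise for the phospholipase C family and the neighbours. Some genes of the pathway are not reported here. The nearest peaks of Syk, Btk, Blnk, Lyn, Plcg1 and Inpp5d were added. Genes of like pattern are the 5 with the highest Pearson r. Sequences were read from RefSeq GRCm38.p6. The build was checked by the 20 member distances, which gave the RefSeq start of Plcg2 within 2 bp.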

Additional observations from a re-analysis of the deposited data

How the results depend on the processing

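The summed log2 difference of the Plcg2 locus, 0.96 with an SD of 0.11 between replicates, stayed between 0.88 and 1.04 under every alternative run. In every other fit, as in the one reported, 19 members had a fitted log2 fold change above 0. Among 156 alternative values of the 12 named members none was reversed and 17 lost their call. The count of 9 called Plcg2 peaks was 9 under 3 other sets of size factors, loess offsets, edgeR, separate fits of distal and promoter-proximal peaks, an adjusted p under 0.1 and the low-tag filter, and 6 to 8 with 1 library left out. Without the fold limit, calls rose to 2448 over all peaks, 5 among neighbours and 27 in the pathway list. With the fold limit kept, 10 pathway peaks were called within 50000 bp. With edgeR 1908 peaks were called over all. In the phospholipase C family 1 peak was called in place of 0 with an adjusted p under 0.1, separate fits, edgeR, loess offsets or total mapped tags. With 1 library left out, calls ran from 369 to 2603 over all peaks, 0 to 4 among neighbours, 0 to 2 in the phospholipase C family and 6 to 22 in the pathway list.

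The groups share the replicate numbers 1 and 4, but same-numbered libraries did not deviate together (correlations of -0.04 and 0.05), and the labels give no shared mouse or batch. A fit with the replicate number as a block uses the 4 libraries so numbered and gave 56 calls over all peaks, 1 at Plcg2, 0 among neighbours and 0 in the pathway list. Plcg2 summed 0.89 on the log2 scale there, with 19 of 20 members above 0. Fewer samples enter this fit. At 10 to 30 tags a peak, counting error limits what a single low member can show.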
